A study of Mus musculus with 8 samples.

Results

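The transcripts Snhg11, Gm27199, Gm26801, Malat1, Miat and 6330403A02Rik were followed through neurons of the embryonic mouse cerebral cortex. They are 6 of the 27998 genes in the deposited count table, and they were selected on their UMI counts in these same cells, Snhg11 and Gm27199 because those counts varied among Cajal-Retzius-like barcodes. Their levels are therefore given as a description, with no test. The cells were EGFP-positive cells sorted from E15.5 cerebral cortex of Tg(Ebf2-EGFP)FB58Gsat mice, in which a bacterial artificial chromosome carrying Ebf2 regulatory sequence drives EGFP. They came from pooled embryos of timed-pregnant mice, and sorting by EGFP was meant to leave out cells without the reporter. All 8 labelled samples carry the same description, and their cells stand in 1 pooled matrix of 3000 barcodes with a single library suffix and no map from barcode to sample, so the series was treated as 1 sample and no replicate error could be computed.

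Long noncoding RNAs (lncRNAs) are transcripts that act, where a function is known, as RNA rather than through a protein. Some stay in the nucleus and associate with splicing bodies, some are spliced from genes whose introns carry small nucleolar RNAs, and some run antisense to a neighbouring protein-coding gene. Cajal-Retzius neurons are early-born cells of the cortical surface that secrete Reelin, the product of Reln, and they are known to express the LIM homeobox gene Lhx5.

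The barcodes were divided by the rule that defined the set. A neuronal barcode with at least 5 Reln UMIs (unique molecular identifiers, each a counted RNA molecule) per 10000 was Reln-high. Of 2931 kept barcodes, 470 met this. A neuron below that level with at least 1 Lhx5 UMI was Lhx5-positive Reln-low, and 237 barcodes met this. The other neurons numbered 2210, and 14 non-neuronal barcodes, 12 of them cycling, were set apart for comparison. These are barcodes of cells, and 2 of the 14 held at least 5 Reln UMIs in a random 10000 of their UMIs. They are therefore not a clean measure of free RNA. The median depth was 21658.5 UMIs in Reln-high barcodes, 15651 in Lhx5-positive Reln-low barcodes and 15242 in other neurons, and 39.8% of Reln-high barcodes exceeded 25000 UMIs against 9.23% of other neurons. Mixed-sex barcodes, with Xist as well as Y-linked UMIs, made up 13.0% of Reln-high barcodes and 2.67% of other neurons. A level is given as CPM, UMIs of the gene per 1000000 UMIs summed over the group, with a 95% exact Poisson interval in parentheses that covers counting error only. Because sorted cells were pooled, the intervals say nothing about embryos. The Reln-high group carried the defining markers: Trp73, a p53-family gene of these neurons, stood at 141 CPM against 4.18 in other neurons, and Ebf2, the gene behind the reporter, at 35.5 against 1.85.

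The annotation did not give all 6 transcripts as noncoding. GENCODE vM21, the mouse annotation on GRCm38, lists 4 of the 6 among its lncRNAs. 6330403A02Rik is an earlier symbol of Stum, which both GENCODE and RefSeq type as protein-coding (chromosome 1, 180432387 to 180483504, minus strand), so it is described here as a coding gene. Snhg11 (chromosome 2, 158375638 to 158386145, plus strand) is an lncRNA in RefSeq, whereas GENCODE gives 1 of its 5 transcripts a protein-coding type. Gm27199 (chromosome 5, 120419659 to 120431767, minus strand) starts inside Lhx5 on the opposite strand, and their exons share 69 bases at the 5′ ends. Gm26801 (chromosome 1, 177428338 to 177443270, minus strand) is likewise antisense to Zbtb18, with 54 exonic bases in common. Malat1 (chromosome 19, 5795690 to 5802672, minus strand) and Miat (chromosome 5, 112213228 to 112229395, minus strand) are intergenic lncRNAs. Whether reads were counted by strand is not given in the sources used here, so reads from the shared bases of each antisense pair could have been given to either gene.

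Snhg11 is named for the small nucleolar RNAs (snoRNAs) that it hosts, and they are shown because the table counts Snhg11 and gives them no count of their own. GENCODE places Gm25187 and Gm25129 inside the gene, each within an intron of 3 Snhg11 transcripts, and Gm25187 also within an exon of 1 Snhg11 transcript. No snoRNA gene is in the count table. They lie at chr2:158378222-158378354 and chr2:158379534-158379666 on the plus strand of GRCm38. They are printed 5′ to 3′, with the closing ACA in capitals, the trinucleotide that H/ACA snoRNAs carry at or near their 3′ end.
Gm25187: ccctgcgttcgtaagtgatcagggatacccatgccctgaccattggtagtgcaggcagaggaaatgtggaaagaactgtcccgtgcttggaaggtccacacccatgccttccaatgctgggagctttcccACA
Gm25129: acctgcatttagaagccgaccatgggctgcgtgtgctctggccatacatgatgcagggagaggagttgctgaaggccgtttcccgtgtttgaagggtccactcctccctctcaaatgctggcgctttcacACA
Both are 133 bases long, and 93 of 136 aligned positions (68.4%) were identical.

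The 3′ end of Gm27199 is shown because droplet libraries of this kind capture RNA by its poly(A) tail, so this stretch, far from the bases shared with Lhx5, lies nearest to what was counted. It covers chr5:120419659-120419778 on the minus strand of GRCm38, in the last of 2 exons, with the polyadenylation hexamer AATAAA in capitals.
Gm27199 3′ end: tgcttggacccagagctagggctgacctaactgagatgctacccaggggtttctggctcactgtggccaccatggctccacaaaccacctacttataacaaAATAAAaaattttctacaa
The hexamer ended 13 bases before the end of the 623-base transcript. It was present in the last 50 bases of 24.1% of 28867 GENCODE lncRNA transcripts of at least 300 bases, read on the transcript strand.

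Miat is known for repeats of a motif that resembles the branch point of introns, and its annotated repeat element Gm27882 is shown because these letters set it apart among long lncRNAs. It lies at chr5:112216740-112216813 on the minus strand of GRCm38, inside an exon of 2 Miat transcripts, with TACTAAC in capitals.
Gm27882: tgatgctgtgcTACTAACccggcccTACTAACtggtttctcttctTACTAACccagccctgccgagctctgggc
The highest number of TACTAAC matches in any of the 6 Miat transcripts was 6, reached by 2 of them, and the longest Miat transcript had 9163 bases. Of 89 other lncRNA transcripts of 6000 to 12000 bases, 20 (22.5%) held any match on the transcript strand and none held more than 2.

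**Figure D1:**
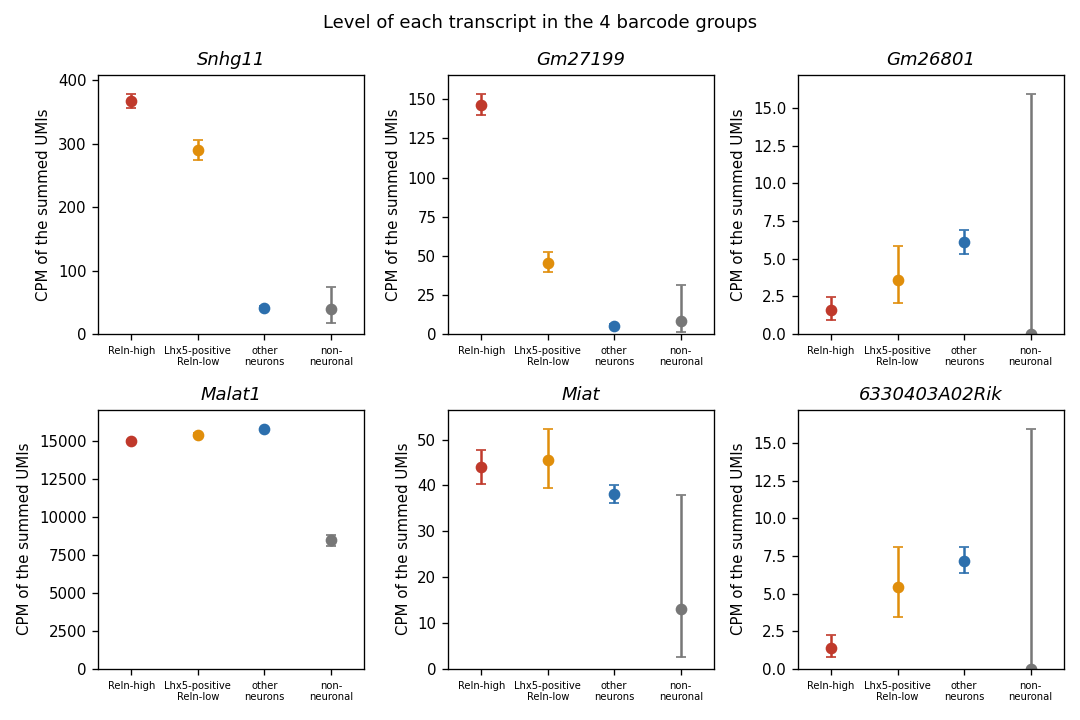
Level of each transcript in CPM of the summed UMIs (vertical axis, linear from 0) in Reln-high, Lhx5-positive Reln-low, other neuronal and non-neuronal barcodes; bars are 95% exact Poisson intervals over counts only. Snhg11 and Gm27199 stand highest in Reln-high barcodes, Gm26801 and 6330403A02Rik in other neurons, and the non-neuronal bars are wide because that group holds 14 barcodes.

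Snhg11 was higher in Reln-high and in Lhx5-positive Reln-low barcodes than in other neurons, and in each group its UMIs were spread unevenly over barcodes. Its level was 367 CPM (357 to 378) in Reln-high barcodes, 290 CPM (274 to 306) in Lhx5-positive Reln-low barcodes and 41.7 CPM (39.6 to 43.8) in other neurons. Non-neuronal barcodes stood at 38.9 CPM (17.8 to 73.8), and all 9 of those UMIs came from 1 barcode. The 3 neuronal levels did not overlap in their intervals, and the ratio of Reln-high to other neurons was 8.82-fold (log2 3.14, 3.06 to 3.22). With deep and mixed-sex barcodes left out, an alternative chosen after seeing the data, it was log2 3.42 (3.32 to 3.53).

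To compare barcodes at 1 depth, each was thinned at random to 10000 UMIs, which every kept barcode reached. Snhg11 then had a UMI in 73.4% of Reln-high barcodes, in 34.6% of Lhx5-positive Reln-low barcodes, in 12.2% of other neurons and in 1 of 14 non-neuronal barcodes (7.14%, 0.181 to 33.9 by the exact binomial interval). Without thinning the shares were 83.2%, 39.2%, 17.3% and 7.14%. The lowest, median and highest Reln-high barcodes held 0, 2 and 30 Snhg11 UMIs in 10000, and the same values were 0, 0 and 27 in Lhx5-positive Reln-low barcodes and 0, 0 and 26 in other neurons. Every neuronal group therefore held barcodes without Snhg11 and barcodes near the top of the range. In other neurons the 49 barcodes (2.22%) with at least 5 UMIs held 64.2% of all Snhg11 UMIs, whereas in Reln-high barcodes 142 (30.2%) reached 5. Its variance over barcodes was 5.78 times its mean in Reln-high barcodes, rank 16 of 6102 genes with a mean of at least 0.2, where the median gene stood at 1.04. The ratio was larger still in Lhx5-positive Reln-low barcodes, at 11.2 (rank 11 of 5772 genes), and in other neurons, at 8.64 (rank 13 of 5683).

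**Figure D2:**
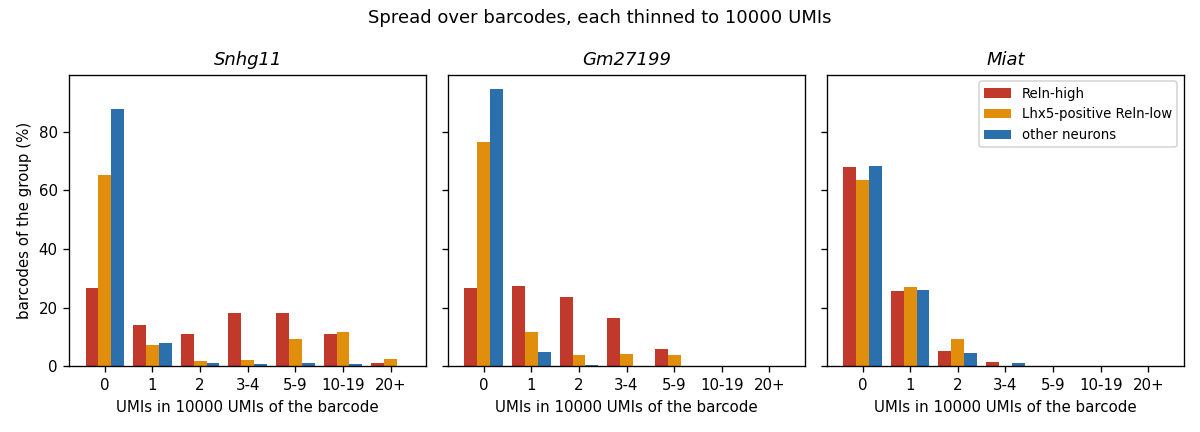
Share of barcodes of each group (vertical axis, percent, from 0) by the number of UMIs of Snhg11, Gm27199 and Miat in 10000 UMIs of the barcode (horizontal axis); bars are the 3 neuronal groups. Snhg11 has a second rise at 5 to 19 UMIs in Lhx5-positive Reln-low barcodes, Gm27199 reaches 5 to 9 UMIs at most, and Miat has nearly the same bars in all 3 groups.

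Gm27199, the antisense neighbour of Lhx5 and 1 of the 9 lncRNAs that the study named as specific to Cajal-Retzius neurons, had the largest ratio of the 6 in Reln-high barcodes. It stood at 146 CPM (140 to 153) there, at 45.6 CPM (39.5 to 52.3) in Lhx5-positive Reln-low barcodes, at 5.37 CPM (4.65 to 6.16) in other neurons and at 8.64 CPM (1.05 to 31.2, from 2 UMIs) in non-neuronal barcodes. Reln-high barcodes exceeded other neurons 27.3-fold (log2 4.77, 4.56 to 4.99), and the ratio was log2 5.08 (4.84 to 5.33) without the deep and mixed-sex barcodes. The interval of other neurons lay within the wide interval of the non-neuronal barcodes. At 10000 UMIs it had a UMI in 73.4% of Reln-high barcodes, 23.6% of Lhx5-positive Reln-low barcodes, 5.29% of other neurons and 7.14% of non-neuronal barcodes. The unthinned shares were 89.4%, 30.4%, 8.46% and 14.3%. The thinned share in other neurons was thus not above that in non-neuronal barcodes, which rests on 1 of 14 barcodes. Median depths were 15242 and 15962.5 UMIs. Because some of those 14 barcodes were rich in Reln, the comparison cannot show a level of free RNA. Gm27199 was not even over other neurons, which held 14.4 CPM (9.05 to 21.9) of it in the cluster numbered 7 and 4.99 CPM (4.29 to 5.77) outside that cluster. Gm27199 was spread more evenly than Snhg11: Reln-high barcodes ran from 0 through a median of 1 to at most 8 UMIs in 10000, and the variance was 1.44 times the mean (rank 386 of 6102 genes). No other neuron held more than 2 UMIs in 10000.

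Malat1, a nuclear lncRNA found in splicing speckles, differed by less than 10% between the neuronal groups. Its level was 15025.5 CPM (14956.5 to 15094.7) in Reln-high barcodes, 15439.7 CPM (15324.2 to 15555.8) in Lhx5-positive Reln-low barcodes and 15782.4 CPM (15742.3 to 15822.4) in other neurons, with no overlap of these counting intervals. The 14 non-neuronal barcodes were lower, at 8465.53 CPM (8094.77 to 8848.9). It was present in every barcode of every group, with a median of 150.5, 153 and 155 UMIs in 10000 for the 3 neuronal groups and a range of 3 to 534 in Reln-high barcodes. The log2 ratio of Reln-high to other neurons was -0.07, and its sign turned to 0.13 without barcodes above 25000 UMIs.

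Miat, a nuclear lncRNA expressed in the developing brain, also differed little. It stood at 43.9 CPM (40.2 to 47.8), 45.6 CPM (39.5 to 52.3) and 38.1 CPM (36.2 to 40.2) in the same order of groups, and at 13.0 CPM (2.67 to 37.9, from 3 UMIs) in non-neuronal barcodes. Thinned barcodes held a Miat UMI in 32.1%, 36.3% and 31.8% of cases, against 1 of 14 non-neuronal barcodes (58.5%, 52.3%, 45.2% and 21.4% unthinned), and the variance was close to the mean in all 3 groups (1.10, 0.95 and 1.05). The log2 ratio of Reln-high to other neurons was 0.20 (0.06 to 0.35).

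Gm26801 and the coding gene 6330403A02Rik ran the other way, at low levels. Gm26801, antisense to the gene of the transcriptional repressor Zbtb18, stood at 1.57 CPM (0.946 to 2.45, from 19 UMIs) in Reln-high barcodes, at 3.61 CPM (2.06 to 5.87, from 16 UMIs) in Lhx5-positive Reln-low barcodes and at 6.08 CPM (5.32 to 6.92, from 230 UMIs) in other neurons. 6330403A02Rik stood at 1.41 CPM (0.819 to 2.25, from 17 UMIs), 5.42 CPM (3.47 to 8.06, from 24 UMIs) and 7.19 CPM (6.36 to 8.10, from 272 UMIs) in the same order. For both, Reln-high barcodes lay below other neurons with no overlap of the intervals, while the intervals of Lhx5-positive Reln-low barcodes overlapped those of other neurons. Both were at 0 in the non-neuronal barcodes, where 3 UMIs, the limit that a count of 0 allows, would be 13.0 CPM, so a level like that of other neurons was not detectable there. Zbtb18 itself stood at 73.8, 132 and 167 CPM in the 3 neuronal groups, the same order as its antisense transcript. At 10000 UMIs, 6.80% of other neurons with a Zbtb18 UMI and 3.81% of those without one held a Gm26801 UMI, and their exact binomial intervals (5.63 to 8.13 and 2.40 to 5.71) overlapped.

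**Figure D3:**
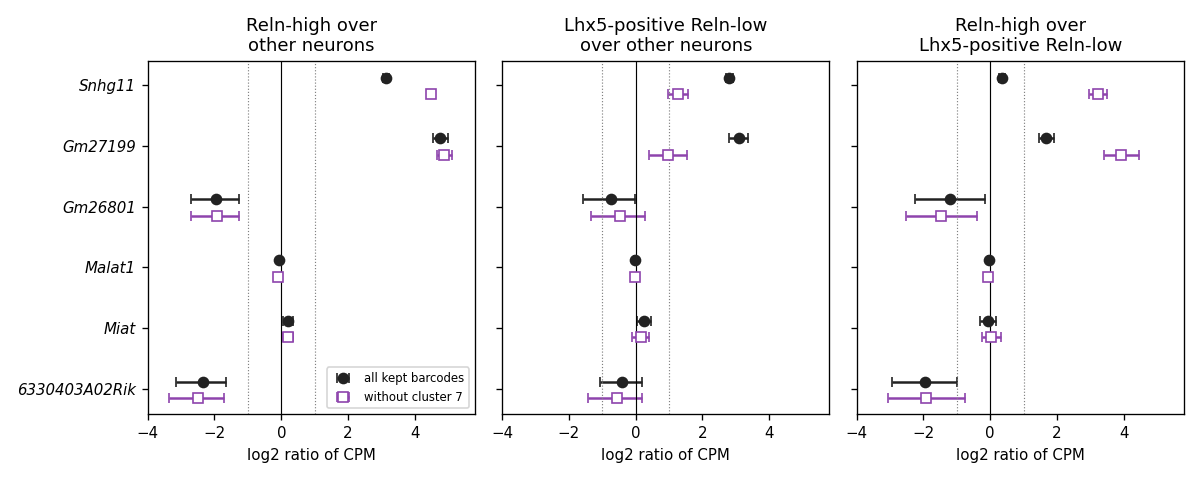
Log2 ratio of CPM (horizontal axis) of the 6 transcripts in the 3 comparisons, with 95% exact binomial intervals over counts only; filled circles use all kept barcodes, open squares leave out cluster 7, and dotted lines mark 2-fold. The circles of Snhg11 and Gm27199 in the middle panel lie at 2.80 and 3.09 and the squares at 1.27 and 0.97.

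The 3 comparisons were summarised by counting members at least 2-fold apart among those with 100 UMIs in the pair of groups, and by the same count over all genes. For Reln-high barcodes over other neurons, all 6 members passed the minimum, 2 were higher (Snhg11 and Gm27199) and 2 lower (Gm26801 at log2 -1.95 and 6330403A02Rik at -2.36), where 7.67% of 11125 genes were higher and 5.3% lower. These values chose the members, so nothing is read from that count. With Reln-high taken from 2 Reln UMIs per 10000, 6330403A02Rik was at log2 -0.98 (-1.45 to -0.54), under 2-fold. The median log2 ratio of all genes was 0.12, and that of 310 lncRNA genes was 0.01. For Lhx5-positive Reln-low barcodes over other neurons, Snhg11 (log2 2.80, 2.69 to 2.90) and Gm27199 (log2 3.09, 2.80 to 3.37) were the members at least 2-fold higher and none was lower, where 1.36% of 10711 genes were higher and 0.327% lower. Gm26801 had log2 -0.75 (-1.58 to -0.02) and 6330403A02Rik log2 -0.41 (-1.08 to 0.20), and Gm26801 passed 2-fold lower without barcodes above 25000 UMIs (log2 -1.14). Gm27199 ranked 6 and Snhg11 12 from the highest of those 10711 ratios. The members were chosen on counts in these cells and the group by Lhx5 UMIs, so nothing is read from those ranks. For Reln-high over Lhx5-positive Reln-low barcodes, 4 members passed the minimum and Gm27199 alone was at least 2-fold higher (log2 1.68, 1.47 to 1.90), where 6% of 9291 genes were higher and 3.56% lower. Snhg11 had log2 0.34 (0.25 to 0.43), and Gm26801 and 6330403A02Rik, with 35 and 41 UMIs in all, were below the minimum. The comparisons share groups and are not independent of each other, and nothing is read from the counts of members in any of them.

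The high Snhg11 level in Lhx5-positive Reln-low barcodes came from a small set of them. Clustering on genes other than the 6 members (K-means with 8 clusters on 20 principal components) gave a Cajal-Retzius-like cluster of 399 barcodes, cluster 3, with all 9 markers of that list at least 2-fold above the rest, and it took 393 of the 470 Reln-high barcodes. A second cluster with high Lhx5, cluster 7, held 174 barcodes. It was left without a cell type name: its leading genes were Tshz2, AW551984, Camk2d and Hap1, and although 3 of the 8 interneuron markers passed 2-fold in it, none was among its 10 leading genes. Tcf7l2, a Wnt pathway transcription factor known from the thalamus, stood at 346 CPM (327 to 367) in cluster 7. Elsewhere it was at most 33.9 CPM, from 10 UMIs in the cycling cluster 8. Few barcodes carried it: 31 of the 237 Lhx5-positive Reln-low barcodes held a Tcf7l2 UMI. The 24 with at least 5 in 10000 held 98.9% of that group's thinned Tcf7l2 UMIs, so it does not describe cluster 7 as a whole.

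Cluster 7 drew 64 barcodes from the Lhx5-positive Reln-low group, 77 from other neurons and 32 from the Reln-high group. Within it, Snhg11 was high whichever group the barcode fell in: 999 CPM (942 to 1058) in its Lhx5-positive Reln-low barcodes, 668 CPM (628 to 710) in its other neurons and 798 CPM (729 to 873) in its Reln-high barcodes. Outside it, Snhg11 was 37.0 CPM (30.7 to 44.3) in Lhx5-positive Reln-low barcodes, 15.4 CPM (14.1 to 16.7) in other neurons and 345 CPM (334 to 356) in Reln-high barcodes. Of the barcodes with at least 5 Snhg11 UMIs in 10000, cluster 7 held 53 of 56 in the Lhx5-positive Reln-low group, 38 of 49 in other neurons and 23 of 142 in the Reln-high group. Without cluster 7, an alternative chosen after seeing the data, the log2 ratio of Reln-high to other neurons rose from 3.14 to 4.49, that of Lhx5-positive Reln-low barcodes to other neurons was 1.27 (0.97 to 1.55), and that of Reln-high to Lhx5-positive Reln-low barcodes was 3.22 (2.96 to 3.49).

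Gm27199 followed another pattern across the same clusters. In cluster 7 it was 146 CPM (125 to 170) in Lhx5-positive Reln-low barcodes and 140 CPM (112 to 174) in Reln-high barcodes, but 14.4 CPM (9.05 to 21.9) in other neurons, where Snhg11 was still 668 CPM. Those other neurons were chosen for having no Lhx5 UMI. Outside cluster 7 it fell to 9.80 CPM (6.70 to 13.8) in Lhx5-positive Reln-low barcodes, and its log2 ratio over other neurons was then 0.97 (0.38 to 1.52), under 2-fold.

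**Figure D4:**
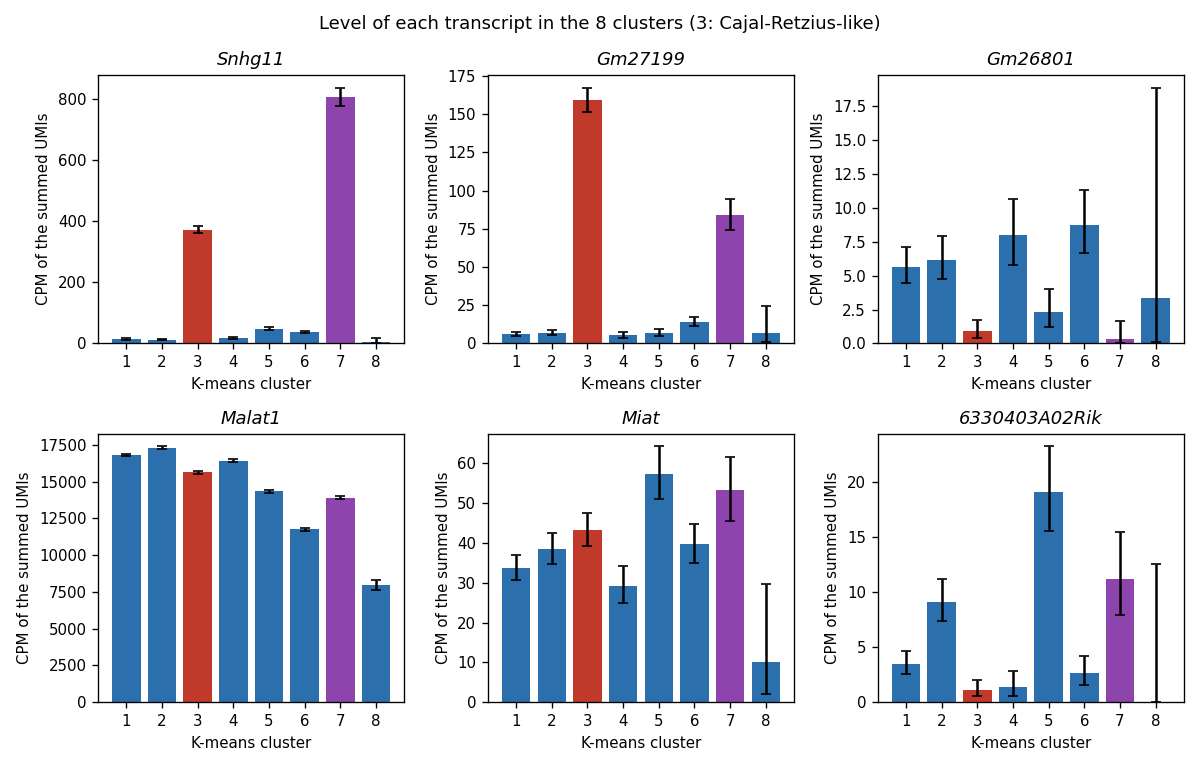
Level of each transcript in CPM of the summed UMIs (vertical axis, linear from 0) in the 8 K-means clusters, with 95% exact Poisson intervals over counts only; cluster 3 (red) is Cajal-Retzius-like, cluster 7 (purple) has the next highest Lhx5 level and cluster 8 is cycling. Snhg11 peaks in cluster 7, Gm27199 in cluster 3, and 6330403A02Rik in the subplate neuron-like cluster 5.

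Across all 8 clusters the members kept distinct orders. Snhg11 stood at 807 CPM (777 to 838) in cluster 7 and 372 CPM (360 to 384) in cluster 3. The next were the subplate neuron-like cluster 5 at 49.0 CPM (43.2 to 55.4) and the unnamed cluster 6, led by Neurod1 and Zbtb20, at 37.3 CPM (32.8 to 42.2), and the remaining clusters lay between 3.39 and 18.8 CPM. Gm27199 stood at 159 CPM (152 to 167) in cluster 3 and 84.0 CPM (74.4 to 94.4) in cluster 7, followed by cluster 6 at 14.1 CPM (11.4 to 17.2), with the other 5 between 5.32 and 7.17 CPM and overlapping in their intervals. Of the 2 clusters with high Lhx5, cluster 7 thus had the higher Snhg11 level and cluster 3 the higher Gm27199 level. Among Reln-high barcodes alone, Gm27199 was 161 CPM (153 to 169) in cluster 3 and 140 CPM (112 to 174) in cluster 7, with overlap.

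Gm26801 was highest in cluster 6 at 8.76 CPM (6.67 to 11.3) and the upper-layer projection neuron-like cluster 4 at 7.99 CPM (5.83 to 10.7), whose intervals overlapped. It was lowest in cluster 3 at 0.905 CPM (0.414 to 1.72) and in cluster 7, with 1 UMI in 174 barcodes. Zbtb18 was also lowest in clusters 7 and 3, at 45.9 and 60.1 CPM, and highest in clusters 4 and 6, at 232 and 215 CPM. 6330403A02Rik stood at 19.1 CPM (from 100 UMIs) in the subplate neuron-like cluster 5, 11.2 CPM (7.87 to 15.4) in cluster 7 and 9.13 CPM (7.37 to 11.2) in cluster 2, which was led by Akap7 and Kitl, and at 1.11 CPM (0.552 to 1.98) in cluster 3. In cluster 4, 6330403A02Rik was as low, at 1.42 CPM (0.613 to 2.80, from 8 UMIs), an interval that overlapped that of cluster 3. Clusters 6 and 1 stood at 2.67 and 3.48 CPM. Low levels in the Cajal-Retzius-like cluster were therefore shared by Gm26801 and 6330403A02Rik, but were not particular to that cluster. Cluster 7 was low in Gm26801 and not in 6330403A02Rik.

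Miat ranged from 29.3 CPM (from 165 UMIs) in cluster 4 to 57.4 CPM (51.1 to 64.2) in cluster 5 among neuronal clusters, with cluster 7 at 53.2 CPM (45.6 to 61.6), and the cycling cluster 8 held 3 UMIs. Malat1 ranged from 11748.7 CPM in cluster 6 to 17314 CPM in cluster 2 among neuronal clusters and was 7949.64 CPM in cluster 8. Malat1 was also lower in deeper barcodes: Reln-high barcodes above 25000 UMIs had 12808.6 CPM and the rest 18314.7 CPM, and other neurons 11678.8 and 16706.2 CPM. Cluster 6 was the deepest, with a median of 23218.5 UMIs. Gm27199 also moved with depth. It stood at 123 CPM (115 to 132) above 25000 UMIs and 181 CPM (169 to 193) in the other Reln-high barcodes, and at 22.3 CPM (from 30 UMIs) and 55.8 CPM (47.8 to 64.8) in Lhx5-positive Reln-low barcodes. Snhg11 was lower in the deeper barcodes of both groups, at 352 against 391 CPM and 240 against 311 CPM, but higher in those of other neurons, at 56.4 against 38.4 CPM. The part of depth in these orders was not tested.

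The levels of Snhg11 and Gm27199 were then read against Lhx5 and Reln themselves. Among Reln-low neurons, Snhg11 went from 41.7 CPM in barcodes with no Lhx5 UMI to 138 CPM (125 to 151) with 1, 606 CPM (532 to 688) with 2, 509 CPM (441 to 585) with 3 and 884 CPM (800 to 974) with 4 or more. Gm27199 went from 5.37 CPM to 15.7 (11.7 to 20.7), 95.2 (67.4 to 131), 74.6 (49.9 to 107) and 186 CPM (148 to 230). For both, the intervals did not overlap between 0 and 1, between 1 and 2 or between 3 and at least 4 Lhx5 UMIs, and those at 2 and 3 UMIs did. Of the 237 Lhx5-positive Reln-low barcodes, 177 had a single Lhx5 UMI. With 2 UMIs asked for, 60 barcodes remained, at 678 CPM (633 to 725) of Snhg11 and 122 CPM (103 to 143) of Gm27199. The log2 ratio of Reln-high to these barcodes was then -0.88 (-0.99 to -0.78) for Snhg11, a turn of sign from 0.34, and 0.26 (0.02 to 0.51) for Gm27199.

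In Reln-high barcodes Lhx5 was counted after thinning, so the change with Lhx5 cannot be set against that of Reln-low neurons. At full depth 446 of the 470 held an Lhx5 UMI, so the barcodes at 0 include some with Lhx5. With Lhx5 counted at 10000 UMIs, Gm27199 was 104 CPM (92.5 to 117) at 0 Lhx5 UMIs and 195 CPM (176 to 216) at 4 or more, and Snhg11 went from 314 CPM (293 to 336) to 407 CPM (380 to 437). A Gm27199 UMI was found in 76.5% of the 378 Reln-high barcodes with a thinned Lhx5 UMI and in 60.9% of the 92 without, with intervals (71.8 to 80.6 and 50.1 to 70.9) that did not overlap. By Reln level, Gm27199 rose over the bands of 6 to 10, 10 to 20 and 20 to 40 Reln UMIs per 10000 from 78.5 through 126 to 186 CPM, and Snhg11 from 225 through 326 to 436 CPM. The cut at 5 per 10000 did not divide either transcript: the 16 barcodes at 4 to 5 had 500 CPM (421 to 590) of Snhg11 and 77.5 CPM (48.6 to 117) of Gm27199, and the 7 at 5 to 6 had 528 CPM (426 to 647) and 62.5 CPM (31.2 to 112). The barcodes nearest the cut held 4.87 and 5.04 Reln UMIs per 10000.

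**Figure D5:**
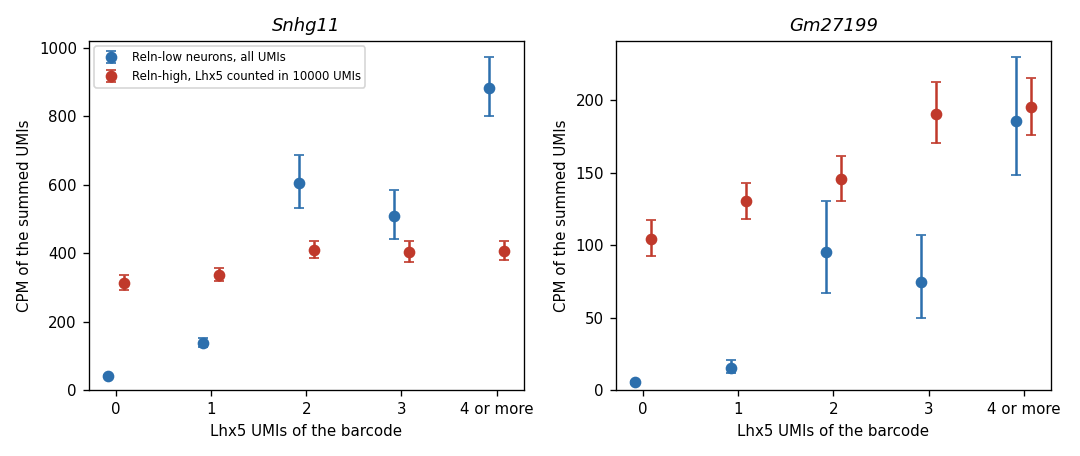
Level of Snhg11 and Gm27199 in CPM of the summed UMIs (vertical axis, linear from 0) by the number of Lhx5 UMIs in the barcode (horizontal axis), with 95% exact Poisson intervals over counts only; Reln-low neurons in blue, by all their UMIs, and Reln-high barcodes in red, by Lhx5 at 10000 UMIs, so the 2 axes of Lhx5 number differ in depth. The blue points climb from 41.7 to 884 CPM for Snhg11 and the red ones from 314 to 407.

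Within Reln-high barcodes, Snhg11 and Gm27199 varied with partly different genes, with Ntm among the highest and Igfbpl1 among the lowest of both. Correlations are Pearson's r over 470 barcodes of log(1 + UMIs in 10000), among 5720 genes with a UMI in at least 20% of them. The cells share 1 library and depth was equalised, and the values are descriptions. For Snhg11 the highest were Meg3, an imprinted lncRNA, at 0.50, Ntm, a neuronal adhesion protein, at 0.40, Tmem130 at 0.36, Celf4, an RNA-binding splicing regulator, at 0.34 and Snrpn, an imprinted splicing factor gene, at 0.34. The lowest were Igfbpl1, at -0.46, Rspo3, a secreted Wnt activator, at -0.40, and the transcription factor gene Nfix, at -0.40. For Gm27199 the highest were Gap43, a growth cone protein, at 0.28, the Cajal-Retzius marker Ndnf at 0.28, Reln at 0.28, Ntm at 0.26 and Gpc1 at 0.26. Its lowest were Sox11 at -0.34 and Igfbpl1 at -0.29. Snhg11 and Gm27199 had r = 0.18 with each other there. In the 205 Reln-high barcodes with more than 1 thinned UMI of Rspo3 and Cdkn1a together, Snhg11 was 259 CPM (245 to 274) against 433 CPM (418 to 448) in the other 265, and Gm27199 was 132 CPM (122 to 143) against 155 CPM (146 to 164). Snhg11 thus differed by a wider margin between these parts of the Reln-high group, whose median depths were 18705 and 24975 UMIs, and the part of depth in this was not tested. With 12 clusters in place of 8, 3 clusters were Cajal-Retzius-like and Snhg11 differed between them. It stood at 692 CPM (645 to 743) in 63 barcodes led by Cebpa and Samd3, at 424 CPM (409 to 439) in 251 led by Ndnf and Fibin, and at 113 CPM (98.7 to 128) in 124 led by Cdkn1a and Serpinh1. Gm27199 in the same clusters was 182 CPM (158 to 209), 166 CPM (157 to 176) and 121 CPM (107 to 137), with overlap of the first pair.

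Elsewhere the companions of Snhg11 were partly other genes. Over 237 Lhx5-positive Reln-low barcodes the highest were Nnat at 0.79, Nr2f2 at 0.70, Gm27199 at 0.64, Tmem158 at 0.64 and Tmem163 at 0.63. Meg3 had r = 0.53 with Snhg11 in these barcodes. The lowest were the cortical transcription factors Nfib and Nfix, both at -0.79, and Neurod2 at -0.74. Gm27199 had Snhg11 itself, Tmem163 at 0.54, Nnat at 0.52, Nr2f2 at 0.50 and Lhx5 at 0.44 there. Over 2210 other neurons the highest for Snhg11 were Fxyd7 at 0.34, Nnat at 0.33, Zcchc12 at 0.32, Negr1 at 0.30 and Meg3 at 0.25. Nfib and Nfix were again lowest there, at -0.42. For Malat1 in Reln-high barcodes the highest were Btg1 at 0.29, Map1b at 0.26, Tiparp at 0.26, Dmrta2 at 0.25 and Ddx5 at 0.25. The ribosomal protein gene Rpl41 was lowest at -0.37, and the sum of ribosomal protein UMIs had r = -0.50 with Malat1 there, against 0.04 in other neurons. In Lhx5-positive Reln-low barcodes that sum had r = -0.58 with Snhg11 and -0.41 with Gm27199. In other neurons the highest for Malat1 were Sox4 at 0.33, Nfib at 0.33, Bcl11b at 0.21 and Sox11 at 0.20. Miat and Gm26801 had no gene at 0.2 or above in either group, nor had Gm27199 in other neurons. In these groups the highest for 6330403A02Rik was Sgf29, at 0.22 in Reln-high barcodes. Over the 237 Lhx5-positive Reln-low barcodes the highest were Atp1b1 for Miat at 0.30, Mast1 for Miat at 0.27, Rap1gds1 for Gm26801 at 0.24 and Fut9 for 6330403A02Rik at 0.26, and these are weak values in sparse counts.

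Lists of related genes place the members. Of the 9 lncRNAs that the study named for Cajal-Retzius neurons, which it chose on sorted cells of the same reporter line, 7 were in the table and 4 had 100 UMIs in Reln-high barcodes and other neurons. Of these, 3 were at least 2-fold higher in Reln-high barcodes, Gm27199, Lhx1os (log2 4.85) and E330013P04Rik (log2 5.51), and Gm16701 had log2 -0.62 (-1.28 to -0.02), with 2.23 and 3.44 CPM. The median over the 4 was 4.81, and nothing is read from it, because the minimum decided which lncRNAs counted and Gm27199 is a member. E330013P04Rik held 75 UMIs in other neurons and passed only with its 1094 in Reln-high barcodes. Gm26649, Gm13716 and Gm12063 held 41, 8 and 23 UMIs, too few to pass. Their values were log2 -0.64 (-2.05 to 0.56), 0.06 (-3.28 to 2.54) and 0.14 (-1.49 to 1.55). Gm21984 and 2610035F20Rik were not analysed here. Lhx1os and E330013P04Rik were 25.7 and 5.64 CPM in Lhx5-positive Reln-low barcodes against 181 and 90.5 CPM in Reln-high barcodes, so that their ratios of Reln-high to Lhx5-positive Reln-low barcodes, with intervals of log2 2.54 to 3.10 and 3.43 to 4.64, were above that of Gm27199, 1.68 (1.47 to 1.90).

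Of 19 listed snoRNA host genes, 8 were found in the table and 6 passed the minimum. Snhg11 alone of these was at least 2-fold apart, where 7.67% of all genes were higher and 5.3% lower. It was chosen on these counts, so nothing is read from that. The other host genes that passed were Snhg9 at log2 0.96, Snhg20 at 0.28, Snhg12 at -0.52, Epb41l4aos at -0.54 and Snhg6 at -0.62. The list's median was -0.12. Of the nuclear lncRNAs, 5 passed and none was 2-fold apart: Mirg had log2 0.52, Kcnq1ot1 0.22, Miat 0.20, Meg3 -0.03 and Malat1 -0.07, with a median of 0.20. Of the other neural lncRNAs, 7 passed, with a median of -0.27. Emx2os (log2 2.94), antisense to a patterning gene, and Rmst (log2 2.02) were higher in Reln-high barcodes, and Pantr1 (log2 -1.34), a neighbour of Pou3f3, was lower. Rmst was also higher in Lhx5-positive Reln-low barcodes (log2 1.93), where Emx2os held 7 UMIs. All 11 neuronal maturation genes passed, with a median of -0.20: Gap43 was higher (log2 1.03), Sox4 (log2 -1.53) and Sox11 (log2 -1.34), transcription factors of young neurons, were lower, and Dcx, a microtubule-binding protein of migrating neurons, had log2 -0.78.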

How the data were processed

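Single-cell RNA-seq of Ebf2-EGFP-positive E15.5 cortical cells was made by the authors on the Chromium platform. The submitters' processing notes name Cell Ranger 2.0.0, Seurat 2.0 and mm10. The deposited values are raw UMI counts per gene and barcode, not normalized, for 3000 barcodes and 27998 genes, 57180867 UMIs in all and 10718 to 76690 per barcode. No barcode failed a filter at 1000 genes and 10% mitochondrial UMIs.

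The 2.3% of barcodes with the highest Scrublet scores (69) were removed as doublets, since the caller's own threshold marked only 2 and had not worked. Counts were summed per group and divided by the group's total, because the 8 samples cannot be told apart in the matrix and form 1 sample. CPM intervals are exact Poisson, ratios have exact conditional binomial intervals and shares Clopper-Pearson intervals, all at 95%, and they cover counting error only. Non-neuronal barcodes had a UMI of at least 4 cycling genes, at least 100 erythroid UMIs, or at least 3 microglia or 3 endothelial genes. Barcodes were thinned to 10000 UMIs with a fixed seed. Clusters (scanpy 1.11.5, scikit-learn 1.9.0, 2000 variable genes) were made without the 6 members and named from marker lists where at least 3 markers passed 2-fold and at least 1 was among the 10 leading genes. Python 3.11.15 and scipy 1.17.1 were used, and the ratio script was tested on simulated counts.

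The members, gene lists and markers were chosen with earlier results of these data known. Named genes were the members, the lists (from those over 10 genes, the 4 highest and 4 lowest ratios) and the 5 genes with the highest correlation with each member, if at 0.2 or above. The 3 lowest at most are also named, chosen after their values were seen. Genes match by Ensembl identifier to GENCODE vM21 (27645 of 27998), and sequences are from its GRCm38 transcripts. Gm16701 has more than 1 identifier in the table, and that of the study's transcript was used.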

Additional observations from a re-analysis of the deposited data

How the results depend on the processing

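The counts of members at least 2-fold apart were recomputed under 19 settings, of which 3 were chosen after seeing the data. In Reln-high over other neurons, 2 members higher held under all 19, and 1 in place of 2 was lower with Reln-high from 2 per 10000, where 6330403A02Rik was at log2 -0.98. In Lhx5-positive Reln-low over other neurons, the number higher went from 2 to 1 without the barcodes of cluster 7, and the number lower from 0 to 1 without barcodes above 25000 UMIs, without mixed-sex barcodes (at least 5 Xist and 2 Y-linked UMIs), without both of these, with the mean of each barcode's own CPM, with clusters in place of groups and at 1.5-fold. In Reln-high over Lhx5-positive Reln-low barcodes, the number higher went from 1 to 0 with Lhx5-positive from 2 or 3 UMIs and with clusters in place of groups, and to 2 without cluster 7. The number lower there went from 0 to 1 with clusters and to 2 with no minimum above 1 UMI. With clusters in place of groups Snhg11 was lower in the Cajal-Retzius-like cluster than in cluster 7 (log2 -1.12), against 0.34 by groups, and it was also -0.88 and -0.95 with Lhx5-positive from 2 and 3 UMIs. Of 342 recomputed ratios, 258 stayed within the counting interval of the reported value and 84 moved outside it, and no ratio past both 2-fold and the minimum of 100 UMIs changed sign. Below that minimum, Gm26801 in Reln-high over Lhx5-positive Reln-low barcodes went from log2 -1.20 to 1.58 (-1.27 to 7.04) with clusters in place of groups, where cluster 7 held 1 UMI. The Snhg11 ratio of Reln-high to other neurons ranged from 2.91 to 4.49 and that of Gm27199 from 4.38 to 5.08. With 12 clusters, the level over the 3 Cajal-Retzius-like clusters together was 391 CPM for Snhg11, which ranged from 113 to 692 CPM among them, and 15936.4 CPM for Malat1, and with no doublet removal 15519.4 CPM for Malat1. No paired analysis was possible because the barcodes carry no replicate number and no test was made. Depth limits Gm26801 and 6330403A02Rik most, with 19 and 17 UMIs in Reln-high barcodes, and the cause of the moves was not tested.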

Other observations

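The lncRNA genes were also ranked by their ratio of Reln-high barcodes to other neurons. Of 310 lncRNA genes with at least 100 UMIs in Reln-high barcodes and other neurons, 9.68% were at least 2-fold higher and 12.6% at least 2-fold lower in Reln-high barcodes. Over all 11125 genes tested the shares were 7.67% and 5.3%. The highest ratios were those of 5930412G12Rik (log2 5.86, 21.5 against 0.370 CPM), Gm43194 (log2 5.73, 33.7 against 0.635 CPM), E330013P04Rik and Dmrta2os (log2 5.13), antisense to the gene of the transcription factor Dmrta2. Next came Lhx1os, Gm29771 (log2 4.83), Gm27199 and Gm28050 (log2 3.86). In other neurons 5930412G12Rik, Gm43194, E330013P04Rik, Dmrta2os and Gm29771 held 14, 24, 75, 43 and 11 UMIs. They passed the minimum only with their Reln-high UMIs, so nothing is read from which genes stand at this end. At the other end were RP23-407N2.2 (log2 -2.37), 2600014E21Rik (log2 -2.24), A830092H15Rik (log2 -2.02), 3110039M20Rik (log2 -1.97) and Gm26801. RP23-407N2.2 was 4.13 CPM in Reln-high barcodes, 24.4 CPM in Lhx5-positive Reln-low barcodes and 21.4 CPM in other neurons. These genes were ranked after their values were seen.

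The 45 Reln-high barcodes that fell in neither cluster 3 nor cluster 7 had 158 CPM (139 to 178) of Snhg11, 63.6 CPM (52.0 to 77.1) of Gm27199 and 6.12 CPM (2.93 to 11.3) of Gm26801, which lay between the levels of Reln-high barcodes in cluster 3 and those of other neurons for the first 2 and at the level of other neurons for Gm26801. In cluster 3 the same transcripts were 376, 161 and 0.913 CPM. Malat1, which was lower in deeper barcodes, stood at 11699.9 CPM in these 45 barcodes and at 15550.7 CPM in the Reln-high barcodes of cluster 3. Whether depth or mixed barcodes had a part in these levels was not tested.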
